A study of Homo sapiens with 12 samples.

Results

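The 47 genes described here lie on the long arm of human chromosome 9 (9q). They were listed by symbol as genes whose mRNA shifted together between 3 lines derived from DU145, an established prostate cancer cell line. They are 47 of the 26485 genes counted, and all 47 passed the filter on low counts among 14732 genes tested, together with 411 other genes of 9q. The members were chosen by differences of their mRNA between these same samples, and as the contrast used is not recorded all 3 are treated as used. Their differences between the lines are therefore given as a description, without a p-value for any single gene.

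All 3 lines carry the Crispr/Cas9 edit of ITGA2, the gene of α2 integrin, which is a subunit of the collagen receptor α2β1. DU145KO was selected for GFP after the edit, and cells that kept α2 integrin on the surface were removed with a flow cytometer, which leaves a population that the methods do not call a clone. DU145KO+α2 is DU145KO stably transfected with α2 integrin cDNA in the pAWneo2 vector, and DU145KO+vector carries the empty vector. Both transfected lines were grown with geneticin, which is not stated for DU145KO. Each line is 1 line in 4 replicates, so the cDNA and the history of a line cannot be told apart. RNA came from spheroids of 8000 cells after 72 hours in serum-free medium. The comparison of DU145KO+α2 with DU145KO+vector asks what differs with α2 integrin, and the comparisons with DU145KO set each transfected line against its parent.

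The long arm of chromosome 9 holds genes of many unrelated functions, among them tumour suppressors such as PTCH1 and TSC1 and the proto-oncogene ABL1. In cancer cells, genes along a stretch of a chromosome can change together, each by a small and similar amount, when the number of copies of that stretch differs between cell populations. Single genes on such a stretch can depart from the common change through their own regulation. A change of many neighbouring genes by a similar small amount is called dosage-like here as a description of the mRNA. DNA copy number was not measured in these samples, and in bulk RNA a lower level in every cell and a loss in some of the cells cannot be told apart.

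The samples held 13948734 to 19988111 counted reads, and the spread between replicates exceeded counting noise (chi-square divided by its degrees of freedom, 7.39 to 25.4). ITGA2 was counted at 259 to 332 CPM (counts scaled to the library size with TMM factors) in DU145KO+α2, at 13.0 to 20.2 CPM in DU145KO+vector and at 15.7 to 25.8 CPM in DU145KO. The epithelial markers KRT8, KRT18, EPCAM and CDH1 were present in every line, with means of 519, 390, 159 and 135 CPM in DU145KO. EPCAM and CDH1 were lower in DU145KO+α2 than in DU145KO, at 72.1 ± 12.7 and 61.3 ± 14.5 CPM (SD, n = 4, adjusted p = 1.86e-05 and 0.00054 in edgeR). Against DU145KO+vector, CDH1 was lower in DU145KO+α2 (log2 fold change −0.70, adjusted p = 0.00981 in edgeR), and against DU145KO, EPCAM was lower in DU145KO+vector (−0.83, adjusted p = 0.00093 in edgeR), each without overlap. KRT18 was lower in DU145KO+α2 than in DU145KO (−0.42, adjusted p = 0.0434 in edgeR). The part of these markers in the results that follow was not tested. Of the prostate luminal markers, TMPRSS2 had at most 13 counts in any sample and KLK3 had 0 in every sample. The leukocyte markers PTPRC and CD3E had at most 1 count in any sample and LYZ at most 41. The highest counts of fibroblast markers were 209 for COL1A1 and at most 12 for COL1A2, COL3A1 and PDGFRB, and those of endothelial markers 50 for KDR, 22 for PECAM1 and 4 for VWF.

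In DU145KO+α2, most genes of 9q had a little less mRNA than in DU145KO+vector. The median log2 fold change was −0.25 over the 47 members, which is a level 15.9% lower, and −0.31 over the other 411 tested genes of 9q. Over the 14037 tested genes of all other chromosomes it was 0.00, and the medians of the 22 other chromosomes lay between −0.03 (chromosome 3) and 0.11 (chromosome 8). DU145KO lay between the transfected lines. Compared with DU145KO, the members' median was −0.15 in DU145KO+α2 and 0.11 in DU145KO+vector, that is 10.2% lower and 8.05% higher. In those comparisons the medians of other chromosomes ran from −0.15 (chromosome 5) to 0.09 (chromosome 14) and from −0.13 to 0.07 on the same chromosomes, so shifts of that size were not limited to chromosome 9.

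The shift ran the length of 9q and began on the short arm (9p), not at the centromere. In windows of 5 Mb (megabases), each of the 16 windows of 9q that held tested genes had a median below 0 in DU145KO+α2 compared with DU145KO+vector, from −0.45 to −0.14. The 68 tested genes of 9p that start before 30 Mb had a median of 0.02. From 30 to 35 Mb the median was −0.29 with 28 of 38 genes below 0, and from 35 to 40 Mb it was −0.57 with 52 of 53 genes below 0. The part of 9p beyond 30 Mb, at −0.44 over 98 genes, was thus lower than 9q itself. None of the 47 members lies on 9p.

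**Figure D1:**
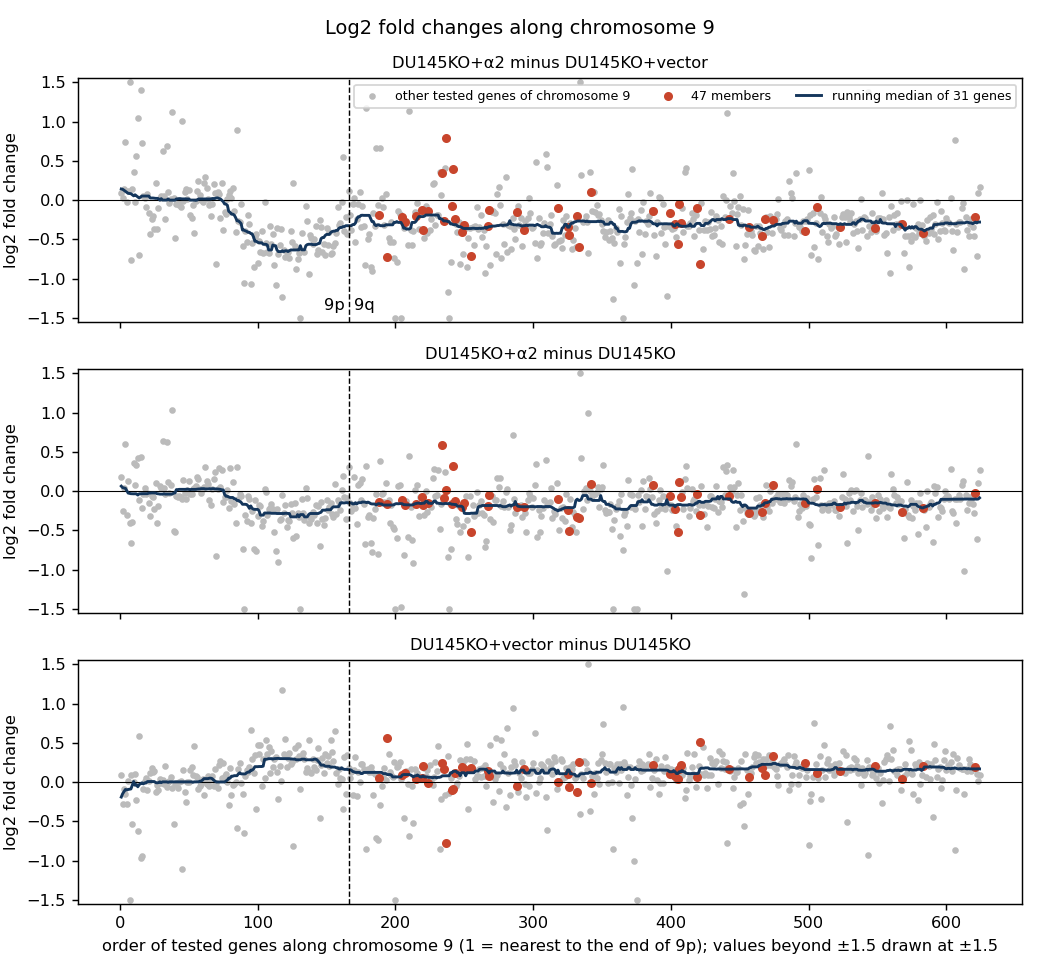
Log2 fold change of each tested gene of chromosome 9 (vertical axis) against its order along the chromosome (horizontal axis) in the 3 comparisons, with the 47 members in red, the other genes in grey and the running median of 31 genes as a line. The line leaves 0 within 9p, left of the dashed border to 9q, and then stays below 0 in the upper and middle panels and above 0 in the lower panel.

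The same order of the lines was seen in each set of replicates. As a score of a sample, the median over the members of log2 CPM minus each gene's mean over the 12 samples was taken. It was 0.075, 0.136, 0.125 and 0.152 in replicates 1 to 4 of DU145KO+vector. In DU145KO it was −0.0761, 0.0108, 0.0353 and 0.0413, and in DU145KO+α2 −0.189, −0.0957, −0.107 and −0.114. No sample of one line overlapped with a sample of another line. Replicate 1 was the lowest sample of each line, and between samples of the same number the difference of DU145KO+α2 minus DU145KO+vector was −0.266 to −0.232. The other 9q genes gave the same order of lines in every replicate number, whereas the 9p genes before 30 Mb overlapped between all lines, from −0.0471 to 0.0571.

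**Figure D2:**
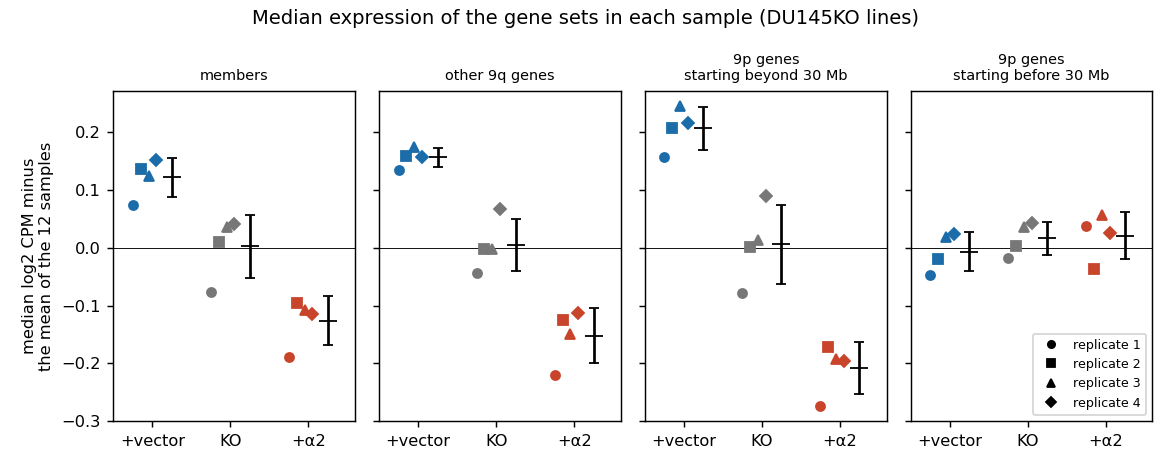
Median over a gene set of log2 CPM minus the gene's mean over the 12 samples (vertical axis), by line and by gene set, with 1 symbol per replicate and bars for the mean and SD of 4 replicates. The members, the other 9q genes and the 9p genes beyond 30 Mb fall from DU145KO+vector through DU145KO to DU145KO+α2, and the 9p genes before 30 Mb do not.

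Counted gene by gene, 43 of the 47 members (91.5%) had a log2 fold change below 0 in DU145KO+α2 compared with DU145KO+vector, beside 51.4% of all genes tested. In 36 members DU145KO+α2 was below DU145KO+vector in all 4 pairs of samples with the same replicate number, as in 22.5% of all genes, and in 25 members every DU145KO+α2 sample was below every DU145KO+vector sample, as in 8.8% of all genes. In 2 members (GADD45G and NFIL3) every DU145KO+α2 sample was above every DU145KO+vector sample, as in 8.4% of all genes. At an adjusted p below 0.05 in edgeR's quasi-likelihood test over all genes, 21 members were lower and 2 were higher, beside 5.95% and 5.96% of all genes tested. With the replicate number as a block these counts were 33 and 3, beside 13.7% and 12.9%. Nothing is read from these counts and shares, nor from those of the other comparisons, since all 3 contrasts are treated as having chosen the members. No member was called with a fold change above 2 in any comparison. Of all genes, 0.821% were lower and 1.38% higher by that rule here, 1.67% and 0.428% in DU145KO+α2 compared with DU145KO, and 0.808% and 0.0272% in DU145KO+vector compared with DU145KO.

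Against DU145KO, 39 members had a log2 fold change below 0 in DU145KO+α2, beside 50.8% of all genes. At an adjusted p below 0.05, 5 members were lower and 1 higher, beside 5.08% and 3.09% of all genes. The count of 5 was 2 without replicate 3 of DU145KO or replicate 1 of DU145KO+α2, and 3 without replicate 4 of DU145KO or replicate 3 or 4 of DU145KO+α2, and the count of 1 was 0 when replicate 1, 2 or 4 of DU145KO or replicate 1, 3 or 4 of DU145KO+α2 was left out. With the block 19 were called lower and 2 higher, beside 12.4% and 9.93%. The samples of DU145KO+α2 and DU145KO did not overlap in 11 members, all lower in DU145KO+α2, beside 7.43% of all genes that were lower and 5.51% that were higher without overlap.

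In DU145KO+vector compared with DU145KO, 39 members were above 0, beside 49.7% of all genes. Here 1 member was lower and 2 were higher at an adjusted p below 0.05, beside 1.84% and 0.496% of all genes, and with the block 1 was lower and 14 were higher, beside 7.85% and 5.59%. The count of 2 was 1 without replicate 1, 2 or 3 of DU145KO or replicate 3 or 4 of DU145KO+vector. The samples did not overlap in 12 members that were higher in DU145KO+vector and in 1 that was lower, beside 3.96% and 4.8% of all genes. The group means fell from DU145KO+vector through DU145KO to DU145KO+α2 in 34 of the 47 members, beside 20.5% of all genes, and in the reverse order in GADD45G, NFIL3 and UGCG, beside 20.1% of all genes. The 3 comparisons share their samples, so they are not independent of each other.

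**Figure D3:**
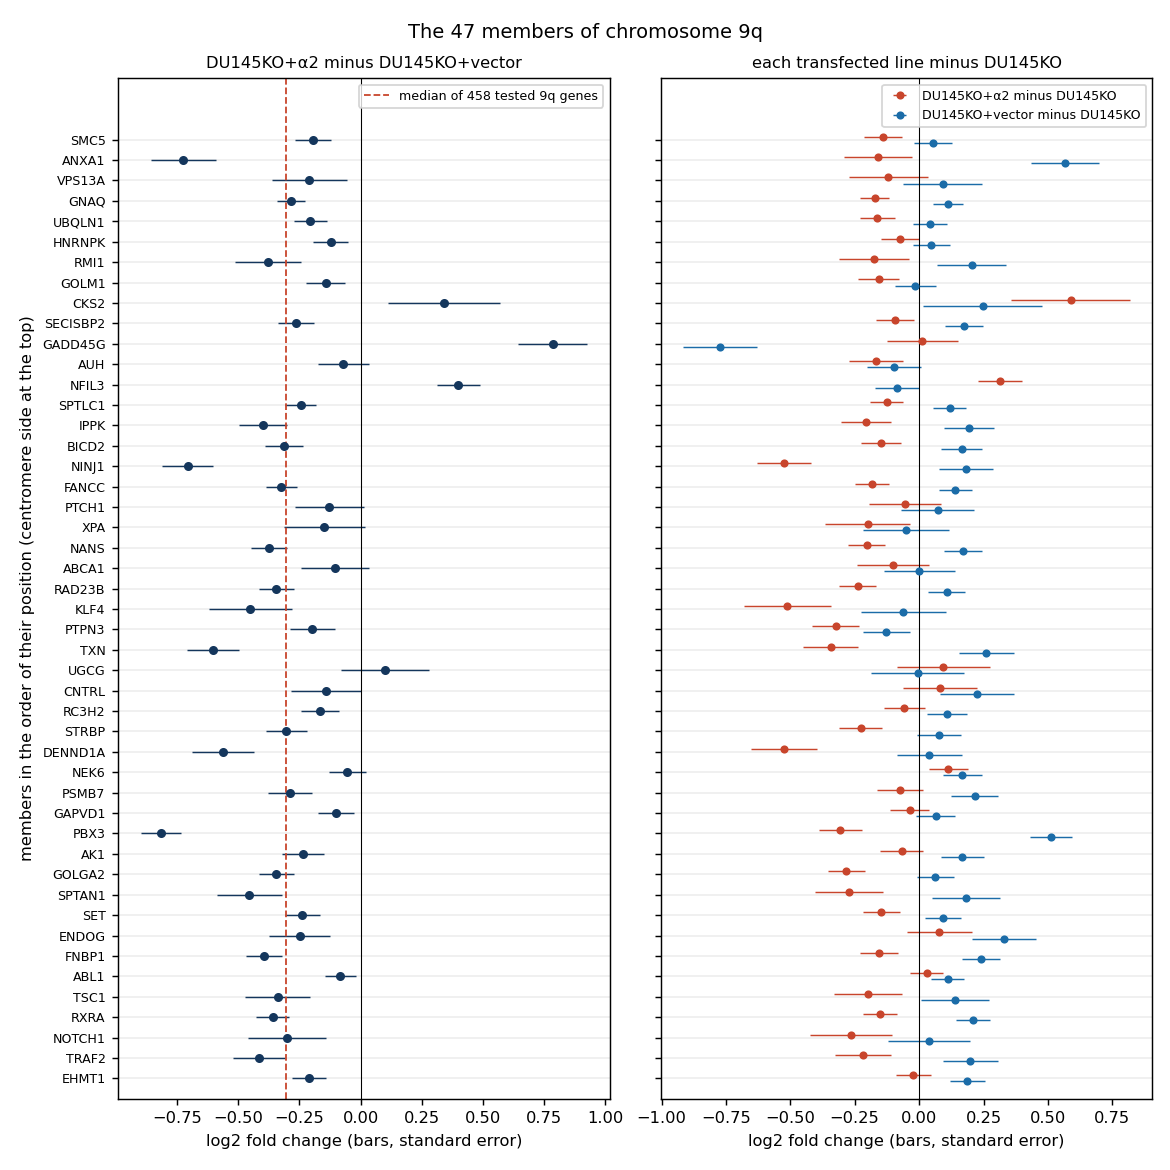
Log2 fold change (horizontal axes, bars for the standard error) of the 47 members in the order of their position on 9q, for DU145KO+α2 compared with DU145KO+vector (left) and for each transfected line compared with DU145KO (right). Most points on the left lie near the dashed median of 9q at −0.31, with PBX3, ANXA1 and NINJ1 to its left and GADD45G, NFIL3, CKS2 and UGCG to its right.

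A member was described as apart from the shift where its log2 fold change differed from the median of all 458 tested 9q genes by more than 0.3 and by more than 2 of its own standard errors. In DU145KO+α2 compared with DU145KO+vector, 7 of 47 members (14.9%) were apart by this rule, beside 17.3% of the other 9q genes and 16.5% of the genes of other chromosomes around their own median. PBX3, ANXA1 and NINJ1 were lower than the shift, and GADD45G, NFIL3, CKS2 and UGCG were above it. Closest to a limit among the members apart between the transfected lines was UGCG, whose deviation of 0.41 had a standard error of 0.18. Among the others TXN was closest, with a deviation of −0.297. Without replicate 1 of DU145KO+α2 the log2 fold change of UGCG was −0.01. Compared with DU145KO, CKS2 and NFIL3 were above and NINJ1, KLF4 and DENND1A below the 9q median in DU145KO+α2, and ANXA1 and PBX3 were above and GADD45G below it in DU145KO+vector. Between the transfected lines, the other 40 members lay within these limits.

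Transcription and chromatin genes ran from PBX3 at −0.82, the lowest member, to NFIL3 at 0.40, with a median of −0.30 over 6 members. PBX3 (chromosome 9, 125747373 to 125967377, plus strand, as for all positions in GRCh38) encodes a TALE homeodomain factor that binds DNA with HOX proteins. Replicates 1 to 4 of DU145KO+vector had 88.1, 93.8, 103 and 103 CPM of PBX3, and it was at 66.0, 61.8, 69.2 and 75.4 CPM in DU145KO, and at 56.0, 52.9, 51.2 and 60.4 CPM in DU145KO+α2. All 3 lines were separate in every sample. Its log2 fold change was −0.82 (standard error 0.08) in DU145KO+α2 compared with DU145KO+vector, −0.31 compared with DU145KO, and 0.51 in DU145KO+vector compared with DU145KO. PBX3 was thus lower by 43.3% where 9q as a whole was lower by 19.2%.

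NFIL3 (91409045 to 91483497, minus strand) encodes a basic leucine zipper repressor known for its roles in immune cells and the circadian clock. NFIL3 was counted at 88.8, 85.5, 79.3 and 71.8 CPM in DU145KO+vector, at 82.4, 86.3, 94.5 and 82.3 CPM in DU145KO, and at 120.2, 94.0, 107 and 109 CPM in DU145KO+α2. Every DU145KO+α2 sample was above every DU145KO+vector sample, opposite to the shift. The log2 fold change was 0.40 (standard error 0.09), which lay 0.71 above the median of 9q, and it was 0.31 compared with DU145KO.

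The promoters of PBX3, the member farthest below the shift, and of GADD45G and NFIL3, the members farthest above it, are printed so that these exceptions can be set beside each other. GADD45G is described with the DNA repair genes. Each sequence is the 150 bases before the RefSeq start in GRCh38.p14, 5′ to 3′ on the strand of the gene. Capitals mark matches on either strand to CCAAT (the motif of factor NF-Y), TATAAA (a form of the TATA box) and GGGCGG (the GC box). They are at chr9:125748033-125748182 for PBX3 and at chr9:89604862-89605011 for GADD45G, both on the plus strand, and at chr9:91424627-91424776 on the minus strand for NFIL3. RefSeq also places starts of PBX3 and NFIL3 farther upstream.
PBX3: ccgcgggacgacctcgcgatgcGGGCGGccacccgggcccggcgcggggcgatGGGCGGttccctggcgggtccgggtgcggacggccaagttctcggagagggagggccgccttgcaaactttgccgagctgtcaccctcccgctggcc
GADD45G: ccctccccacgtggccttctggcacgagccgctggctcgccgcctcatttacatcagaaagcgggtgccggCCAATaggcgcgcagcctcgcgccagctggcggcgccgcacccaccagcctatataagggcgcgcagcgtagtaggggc
NFIL3: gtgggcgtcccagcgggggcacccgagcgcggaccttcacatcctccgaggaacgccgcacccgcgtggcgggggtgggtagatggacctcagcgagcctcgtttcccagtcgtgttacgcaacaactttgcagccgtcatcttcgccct
The PBX3 window holds GGGCGG at 2 places, the GADD45G window CCAAT at 1 place, and the NFIL3 window none of these letters. The GADD45G window also holds tatataag near its end, a TATA-like stretch that the exact letters TATAAA do not match. A window without TATAAA is thus not shown to lack a TATA box. In the 250 bases before the start, GGGCGG was found in 73.3% of the 45 members with a RefSeq promoter and in 66.4% of the 11572 promoters of tested genes. CCAAT was found in 40.0% and 34.5% of them, and TATAAA in 11.1% and 5.47%, and the median GC content was 66.8% and 64.8%.

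KLF4 (107484852 to 107489769, minus strand), a zinc finger factor of stem cells and epithelial differentiation, was counted at 22.0, 22.6, 24.2 and 17.0 CPM in DU145KO+vector, at 21.6, 15.6, 31.5 and 20.9 CPM in DU145KO, and at 15.2, 14.9, 16.4 and 16.4 CPM in DU145KO+α2. The DU145KO samples spread over more than the distance between the lines. DU145KO+α2 lay below DU145KO+vector in every sample, with a log2 fold change of −0.45 (standard error 0.17). It overlapped with DU145KO at −0.51, which was apart from the 9q median of −0.16 there. That deviation of −0.35, with a standard error of 0.17, only just passed the rule. The remaining 3 genes of this group moved with 9q between the transfected lines, while EHMT1 was at −0.02 in DU145KO+α2 compared with DU145KO. RXRA, the partner of many nuclear receptors, was at −0.36 (standard error 0.07), SET, a histone chaperone, at −0.24 and EHMT1, a histone H3 methyltransferase, at −0.21, and in all 3 the samples of the transfected lines did not overlap. SET has processed pseudogenes elsewhere in the genome, and the authors counted uniquely aligned reads.

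Of the 8 signalling genes, all were below 0 in DU145KO+α2 compared with DU145KO+vector, with a median of −0.24 and a range from −0.42 to −0.05. GNAQ (77716097 to 78031811, minus strand), the α subunit of a G protein that activates phospholipase C, followed the shift closely in each comparison. It was counted at 178, 175, 174 and 183 CPM in DU145KO+vector, at 159.8, 170.0, 159 and 168 CPM in DU145KO, and at 148, 147, 143 and 145 CPM in DU145KO+α2. The 3 lines did not overlap, and the log2 fold changes were −0.28, −0.17 and 0.11, each with a standard error of 0.06.

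TSC1 (132891349 to 132945378, minus strand) encodes hamartin, which with TSC2 restrains mTORC1. It was at 109, 141, 149 and 134 CPM in DU145KO+vector, at 94.9, 124, 137 and 128 CPM in DU145KO, and at 84.0, 110.1, 124 and 103 CPM in DU145KO+α2. The lines overlapped, since replicate 1 was low and replicate 3 high in each of them, but within every replicate number the order was DU145KO+vector, DU145KO, DU145KO+α2. The log2 fold change of DU145KO+α2 compared with DU145KO+vector was −0.34 (standard error 0.13).

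NOTCH1 (136494433 to 136546048, minus strand), a receptor for ligands of neighbouring cells, was near the end of 9q and at a low level, with 128 counts in its lowest sample. NOTCH1 was counted at 10.4, 13.5, 13.98 and 14.6 CPM in DU145KO+vector, at 10.4, 12.8, 16.2 and 11.6 CPM in DU145KO, and at 7.95, 11.9, 10.9 and 11.7 CPM in DU145KO+α2. The lines overlapped, and the log2 fold change of −0.30 (standard error 0.16) was near the 9q median of −0.31 but with a wide error. PTCH1 (95442980 to 95516971, minus strand), the hedgehog receptor, was at 12.4, 15.5, 13.9 and 16.05 CPM in DU145KO+vector, at 11.2, 14.97, 13.9 and 14.8 CPM in DU145KO, and at 10.99, 13.1, 11.9 and 16.9 CPM in DU145KO+α2. Its log2 fold change of −0.13 (standard error 0.14) could be told apart neither from 0 nor from the median of 9q within 2 standard errors.

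ABL1 (130713043 to 130887675, plus strand), a non-receptor tyrosine kinase, and NEK6, a mitotic kinase, showed little of the decrease. ABL1 was counted at 262, 271, 254 and 276 CPM in DU145KO+vector, at 249, 252, 229 and 253 CPM in DU145KO, and at 244, 261, 251 and 246 CPM in DU145KO+α2. It was higher in DU145KO+vector than in DU145KO in every sample, with a log2 fold change of 0.11 (standard error 0.06), but DU145KO+α2 was not below DU145KO, at 0.03. NEK6 (124257606 to 124353307, plus strand) was at 72.3, 73.0, 71.4 and 75.4 CPM in DU145KO+vector, at 67.4, 68.9, 55.0 and 68.7 CPM in DU145KO, and at 73.2, 71.2, 67.8 and 69.0 CPM in DU145KO+α2. Its log2 fold change was −0.05 (standard error 0.08) between the transfected lines and 0.11 in DU145KO+α2 compared with DU145KO, and replicate 3 of DU145KO stood below all other samples. Neither gene passed the rule for a member apart, with deviations of 0.22 and 0.25 from the median of 9q.

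PTPN3 (109375694 to 109538420, minus strand), a tyrosine phosphatase with a FERM domain, differed in its order. PTPN3 was counted at 87.7, 99.2, 99.9 and 85.3 CPM in DU145KO+vector, at 90.2, 96.5, 118 and 101 CPM in DU145KO, and at 74.3, 86.0, 88.4 and 75.6 CPM in DU145KO+α2. Both transfected lines had lower means than DU145KO, with log2 fold changes of −0.32 in DU145KO+α2 and −0.13 in DU145KO+vector (standard error 0.09 each). TRAF2, an adaptor of tumour necrosis factor receptors, was at −0.42 (standard error 0.11) between the transfected lines without overlap.

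The 9 genes of DNA repair, the cell cycle and stress had a median of −0.19 and the widest spread after the transcription factors, from −0.38 to 0.79. GADD45G (89605012 to 89606555, plus strand) encodes a stress sensor that binds kinases of the p38 and JNK pathways. It was counted at 5.49, 5.10, 4.60 and 5.30 CPM in DU145KO+vector, at 7.74, 8.31, 9.71 and 9.25 CPM in DU145KO, and at 6.71, 9.40, 9.16 and 10.1 CPM in DU145KO+α2. Every DU145KO+vector sample was below every sample of the other lines, which overlapped. The log2 fold change was 0.79 (standard error 0.14) in DU145KO+α2 compared with DU145KO+vector, −0.77 in DU145KO+vector compared with DU145KO, and 0.01 in DU145KO+α2 compared with DU145KO. GADD45G was the member with the lowest counts, with 71 in its lowest sample.

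CKS2 (89311195 to 89316703, plus strand), a small subunit of cyclin-dependent kinases, was counted at 84.0, 54.4, 60.8 and 89.9 CPM in DU145KO+vector, at 66.4, 50.4, 43.2 and 83.8 CPM in DU145KO, and at 106, 69.0, 85.3 and 106 CPM in DU145KO+α2. The lines overlapped, with replicates 1 and 4 above replicates 2 and 3 in each of them, and within each replicate number DU145KO+α2 was the highest line. The log2 fold change was 0.34 (standard error 0.23) compared with DU145KO+vector and 0.59 (standard error 0.23) compared with DU145KO. CDK1, the kinase that CKS2 binds, lies on chromosome 10 and overlapped between the lines, with 28.9 to 69.5 CPM in DU145KO+vector, 17.6 to 58.4 CPM in its parent line and 25.5 to 59.7 CPM in DU145KO+α2.

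FANCC (95099054 to 95317709, minus strand), a member of the Fanconi anaemia core complex for the repair of DNA crosslinks, moved with the shift in every sample. It was counted at 46.995, 47.97, 45.3 and 49.5 CPM in DU145KO+vector, at 41.4, 42.9, 44.9 and 42.8 CPM in DU145KO, and at 36.9, 39.8, 37.7 and 37.0 CPM in DU145KO+α2, with no overlap between any lines. Its log2 fold changes of −0.32, −0.18 and 0.14 differed from the medians of 9q by −0.02, −0.02 and −0.01. ENDOG (128818500 to 128822676, plus strand), a mitochondrial nuclease, was counted at 22.3, 17.7, 17.0 and 18.6 CPM in DU145KO+vector, at 16.8, 14.6, 13.8 and 15.05 CPM in DU145KO, and at 14.3, 17.7, 13.2 and 18.5 CPM in DU145KO+α2. It was higher in DU145KO+vector than in DU145KO in every sample (0.33, standard error 0.12), while DU145KO+α2 overlapped with both.

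Of the remaining 5 genes of this group, RAD23B, which recognises damaged DNA with XPC, was at −0.35 (standard error 0.07) and SMC5, of the SMC5/6 complex, at −0.19, both without overlap between the transfected lines. RMI1, of the BLM dissolvasome, was at −0.38, CNTRL, a centriole protein, at −0.14 and XPA, the damage verifier of nucleotide excision repair, at −0.15, and these 3 overlapped. XPA had 114 counts in its lowest sample, and with a standard error of 0.17 both 0 and the 9q median lay within 2 standard errors of its value.

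The 3 cytoskeleton and membrane genes had the lowest median of any group, −0.71, between −0.73 and −0.46. ANXA1 (73151865 to 73170393, plus strand) encodes annexin A1, a phospholipid-binding protein of anti-inflammatory signalling. It was counted at 625, 581, 779.9 and 756 CPM in DU145KO+vector, at 469, 402, 439.6 and 541 CPM in DU145KO, and at 428, 361, 351 and 517 CPM in DU145KO+α2. DU145KO+vector was above both other lines in every sample, and these overlapped. The log2 fold change was −0.73 (standard error 0.13) in DU145KO+α2 compared with DU145KO+vector and 0.57 in DU145KO+vector compared with DU145KO, but −0.16 in DU145KO+α2 compared with DU145KO, where the 9q median was the same to 2 decimals.

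NINJ1 (93121496 to 93134251, minus strand), a membrane protein known for plasma membrane rupture in dying cells, showed the other pattern. NINJ1 was counted at 143, 156, 156 and 124 CPM in DU145KO+vector, at 114, 121, 157 and 119 CPM in DU145KO, and at 84.7, 100.4, 87.5 and 81.8 CPM in DU145KO+α2. DU145KO+α2 was below both other lines in every sample, and these overlapped. The log2 fold change was −0.71 (standard error 0.11) compared with DU145KO+vector and −0.53 compared with DU145KO, and 0.18 between DU145KO+vector and DU145KO, close to the 9q median of 0.15. SPTAN1, the α spectrin of the membrane skeleton, was at −0.46 (standard error 0.13), and its lines overlapped although the order of the lines held within every replicate number.

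**Figure D4:**
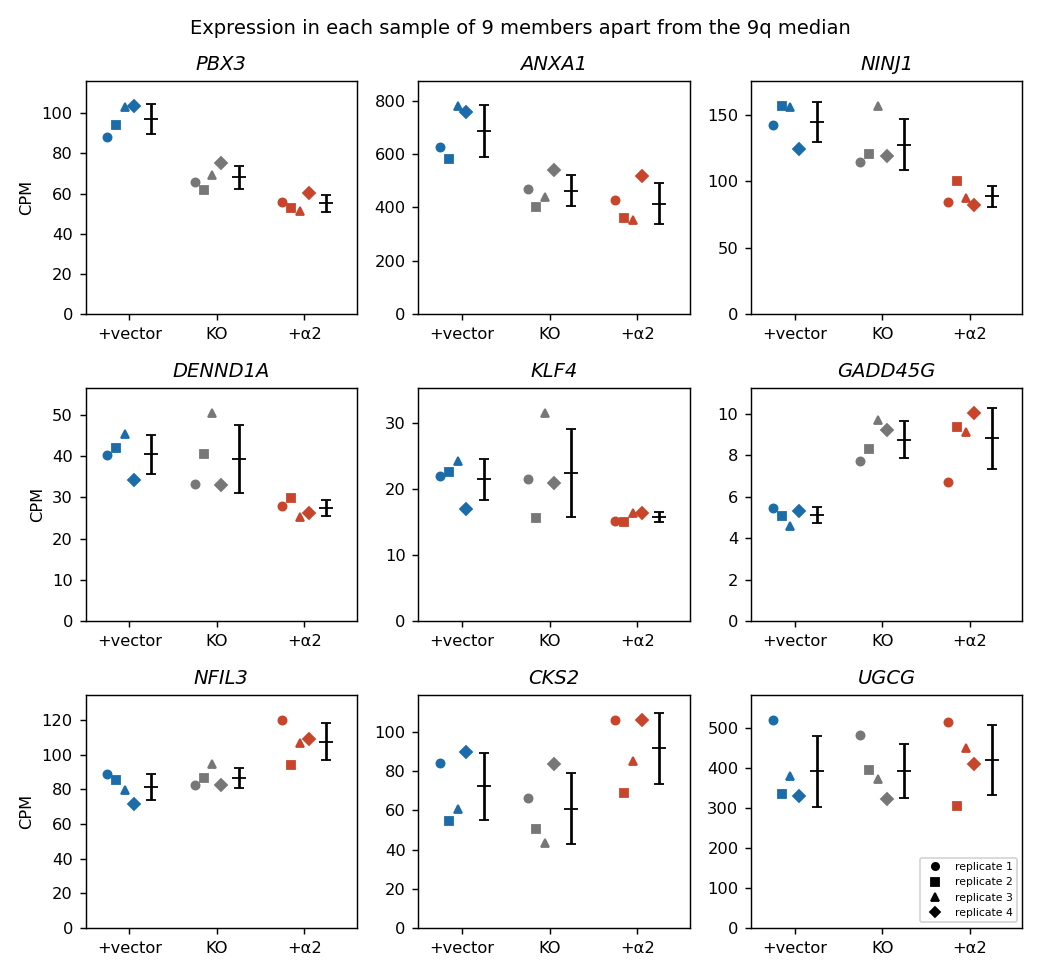
CPM (vertical axes, from 0) in each sample of the 9 members that were apart from the 9q median in at least 1 comparison, by line, with 1 symbol per replicate and bars for the mean and SD of 4 replicates. PBX3 steps down across all 3 lines, ANXA1 is high in DU145KO+vector alone, NINJ1 and DENND1A are low in DU145KO+α2 alone, KLF4 is low in DU145KO+α2 with a wide spread in DU145KO, GADD45G is low in DU145KO+vector alone and NFIL3 lies highest in DU145KO+α2, while CKS2 and UGCG overlap between lines.

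All 7 genes of membrane traffic and the Golgi were below 0, with a median of −0.31. DENND1A (123379658 to 123930126, minus strand), an exchange factor for RAB35 in endocytosis, was counted at 40.3, 41.9, 45.3 and 34.1 CPM in DU145KO+vector, at 33.2, 40.6, 50.5 and 33.0 CPM in DU145KO, and at 27.9, 29.8, 25.3 and 26.2 CPM in DU145KO+α2. DU145KO+α2 was below both other lines in every sample. Its log2 fold change was −0.56 (standard error 0.13) compared with DU145KO+vector and −0.52 compared with DU145KO, and the latter was apart from the 9q median of −0.16. BICD2 (92711363 to 92764833, minus strand), an adaptor of the dynein motor, was at the 9q median. BICD2 was counted at 92.9, 104, 88.3 and 92.3 CPM in DU145KO+vector, at 79.2, 93.1, 79.9 and 84.6 CPM in DU145KO, and at 69.3, 83.3, 75.5 and 75.9 CPM in DU145KO+α2. Its log2 fold changes were −0.31, −0.15 and 0.17, each with a standard error of 0.08.

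GOLM1 (86026146 to 86100149, minus strand), a Golgi membrane protein, was counted at 543, 513, 463 and 514 CPM in DU145KO+vector, at 548, 486, 466 and 553 CPM in DU145KO, and at 490.3, 463, 433 and 455 CPM in DU145KO+α2. The lines overlapped, and DU145KO+vector did not exceed DU145KO (−0.01, standard error 0.08), while DU145KO+α2 was at −0.16 compared with DU145KO. GOLGA2, a tether of Golgi vesicles, and FNBP1, a membrane-bending F-BAR protein, were at −0.35 and −0.39 (standard error 0.07 each) without overlap between the transfected lines. VPS13A, a lipid transfer protein, was at −0.21 and GAPVD1, an exchange factor of RAB5, at −0.10, both with overlap.

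In the group of RNA binding and translation, all 4 genes were below 0, from −0.30 to −0.12. STRBP (123109494 to 123268586, minus strand), a binding protein of double-stranded RNA, was the member nearest to the 9q median between the transfected lines. It was counted at 112, 121, 122 and 109.9 CPM in DU145KO+vector, at 97.5, 113, 124 and 106 CPM in DU145KO, and at 102, 86.7, 101 and 87.0 CPM in DU145KO+α2. The transfected lines did not overlap, and the log2 fold change was −0.30 (standard error 0.08). SECISBP2, needed for the translation of selenoproteins, was at −0.27 without overlap. RC3H2, an RNA-binding ubiquitin ligase, was at −0.16, and HNRNPK, an abundant nuclear RNA-binding protein that also has processed pseudogenes, at −0.12, both with overlap.

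In lipids and metabolism 7 of 8 genes were below 0 between the transfected lines, with a median of −0.24. TXN, thioredoxin, was the lowest of them at −0.60 (standard error 0.11), with 252 ± 34.4 CPM (SD, n = 4) in DU145KO+α2, 383 ± 42.7 CPM with the empty vector and no overlap. UGCG, which makes glucosylceramide, was the exception at 0.10 (standard error 0.18). AUH (91213823 to 91361918, minus strand), a mitochondrial enzyme of leucine breakdown, was counted at 20.9, 22.2, 22.7 and 19.1 CPM in DU145KO+vector, at 21.1, 19.9, 27.3 and 22.7 CPM in DU145KO, and at 20.4, 18.3, 20.3 and 22.0 CPM in DU145KO+α2. The lines overlapped, and its log2 fold change was −0.07 (standard error 0.10) between the transfected lines. SPTLC1, a subunit of serine palmitoyltransferase, NANS, which makes sialic acid, IPPK, an inositol phosphate kinase, and AK1, adenylate kinase, lay between −0.40 and −0.24 without overlap between the transfected lines. ABCA1, the cholesterol exporter, was at −0.10 with overlap, and at 0.00 without replicate 4 of DU145KO+α2. Of the exon bases of IPPK, 73.9% overlap CENPP on the other strand, so its reads cannot be assigned with certainty.

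Both genes of protein turnover moved with 9q between the transfected lines, while PSMB7 was at −0.07 in DU145KO+α2 compared with DU145KO. UBQLN1 (83659968 to 83707958, minus strand), a shuttle to the proteasome, was counted at 283, 301, 279 and 298 CPM in DU145KO+vector, at 256, 297, 292 and 281 CPM in DU145KO, and at 245, 250.2, 260.5 and 251 CPM in DU145KO+α2. The transfected lines did not overlap (−0.21, standard error 0.07), and the value of −0.16 compared with DU145KO was that of the 9q median to 2 decimals. PSMB7, a catalytic subunit of the proteasome, was at −0.29 (standard error 0.09), also without overlap.

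The neighbours of PBX3, NINJ1, NFIL3 and ANXA1 had medians near that of 9q. The 10 tested 9q genes nearest to NFIL3, 5 on each side, had a median of −0.36 between the transfected lines and 9 of them were below 0, against 0.40 for NFIL3. Around PBX3 the median was −0.32 with all 10 below 0, around NINJ1 −0.36 with all 10 below 0, and around ANXA1 −0.29 with 7 below 0. The surroundings of UGCG, CKS2 and GADD45G were less shifted than 9q. The median was −0.17 with 8 of 10 below 0 around UGCG, −0.19 with 6 of 10 below 0 around CKS2 and −0.01 with 5 of 10 below 0 around GADD45G, and CKS2 is a neighbour of GADD45G. SECISBP2, which starts next to CKS2, was at −0.27.

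The shift was of like size at low and at high levels. Spearman's rho over the 47 members, which share the same 12 libraries, was −0.01 between the mean RPKM (counts scaled to the library and to gene length) and the log2 fold change of DU145KO+α2 compared with DU145KO+vector, and −0.22 for the start position. The mean RPKM of the members ran from 1.30 (NOTCH1) to 365 (TXN). When the 458 tested genes of 9q were split into 3 classes by mean RPKM, the median log2 fold changes were −0.29, −0.30 and −0.34 from the lowest class to the highest. The interquartile range of these fold changes was 0.47 in the lowest class and 0.22 in the highest, so the genes of low level were more spread.

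**Figure D5:**
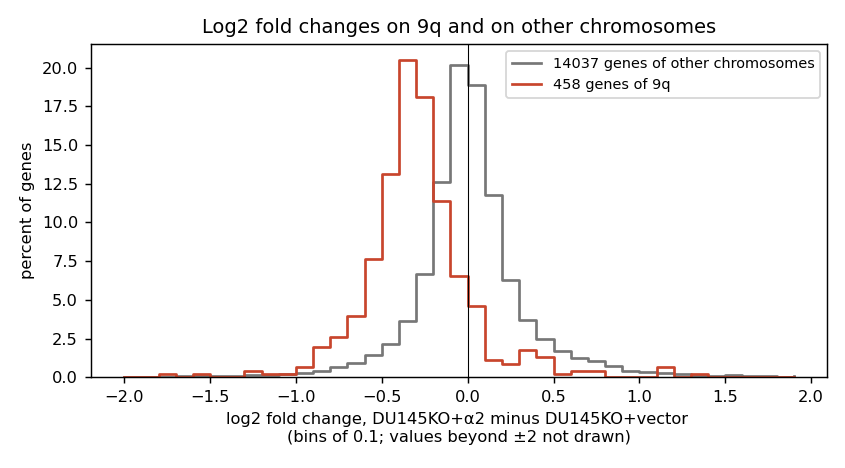
Percent of genes (vertical axis) by log2 fold change of DU145KO+α2 compared with DU145KO+vector (horizontal axis, bins of 0.1) for 458 tested genes of 9q and 14037 tested genes of other chromosomes. The 9q genes form a peak displaced to the left, with 20.5% of them between −0.4 and −0.3.

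Partners of the encoded proteins on other chromosomes had medians closer to 0 than the members. A list of 42 genes for proteins that work with products of the members was examined, of which 41 were tested and 40 lie on other chromosomes. These 40 were not used to choose the members. Their median log2 fold change was −0.05 in DU145KO+α2 compared with DU145KO+vector, 0.03 compared with DU145KO, and 0.07 in DU145KO+vector compared with DU145KO. The proteasome gives the closest comparison. PSMB7 was at −0.29, and 13 other genes of the same core particle had a median of −0.07 and lay between −0.18 and 0.05. In DU145KO+vector compared with DU145KO these 13 had a median of 0.16, beside 0.22 for PSMB7 and 0.15 for 9q, and in DU145KO+α2 compared with DU145KO a median of 0.10, beside −0.07 for PSMB7. TSC1 was at −0.34 and its 2 partners TSC2 and TBC1D7 at −0.02 and −0.17, and GOLGA2 was at −0.35 with its 2 partners at 0.03 and 0.09. Between the transfected lines the partners of FANCC, RMI1 and TXN were lower. Their medians were −0.20 over 5 genes, −0.20 over 3 genes and −0.22 for 1 gene. CDK1, the partner of CKS2, was at −0.33, where CKS2 was at 0.34. The partners of SPTAN1 and of SMC5 had medians of −0.13 each and those of RAD23B −0.04. Those of XPA and of EHMT1 had medians of 0.07 each, and those of SPTLC1 0.41.

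Of the 40 partners, 1 was lower and 1 higher at an adjusted p below 0.05 in DU145KO+α2 compared with DU145KO+vector, beside 5.95% and 5.96% of all genes. FANCF, an adaptor of the Fanconi core complex on chromosome 11, fell to 1.68 ± 0.506 CPM (SD, n = 4) in DU145KO+α2 from 3.45 ± 1.02 CPM in DU145KO+vector (log2 fold change −1.05, standard error 0.24, adjusted p = 0.00867 in edgeR's quasi-likelihood test). FANCF was at 8.67 to 11.2 CPM in DU145KO, above every sample of both transfected lines (adjusted p = 4.87e-06 and 0.00093 in edgeR), so its order of the lines was not that of FANCC. SPTSSA, a small subunit of serine palmitoyltransferase on chromosome 14, was higher in DU145KO+α2 at 355 ± 87.6 CPM than in DU145KO+vector at 194 ± 46.8 CPM (log2 fold change 0.87, standard error 0.23, adjusted p = 0.0327 in edgeR), although their samples overlapped. With the replicate block 5 partners were lower and 1 higher in this comparison, beside 13.7% and 12.9% of all genes. They were 5 lower and 5 higher in DU145KO+α2 compared with DU145KO, beside 12.4% and 9.93%, and 2 lower and 7 higher in DU145KO+vector compared with DU145KO, beside 7.85% and 5.59%. FANCG, the partner on chromosome 9, lies on the shifted stretch of 9p and was at −0.68 (standard error 0.16), lower than FANCC.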

How the data were processed

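RNA of 12 spheroid samples, 4 replicates of each of 3 lines, was sequenced by the authors with stranded mRNA libraries and single-end reads. Per the labels, base calls were made with bcl2fastq 1.8.4, reads were aligned to hg38 with TopHat2 2.1.0 and uniquely aligned reads were counted per gene with Subread 1.5.0. The strand setting of the counting is not given in the sources used here. The authors deposited read counts without normalization, and RPKM values made from them with TMM factors and gene lengths. Lines and replicate numbers come from the sample labels.

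The deposited counts were tested with edgeR 4.0.16 (R 4.3.3), after the script had been tested on simulated data: TMM scaling, filterByExpr with a minimum count of 10 (14732 of 26485 genes), 1 model of all 12 samples with a factor for the line, robust quasi-likelihood F-tests (two-sided), and Benjamini-Hochberg adjustment over all genes tested. The deposited RPKM served for levels between genes. Alternatives used DESeq2 1.42.0 and limma 3.58.1.

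Samples with the same replicate number deviated together from the means of their lines. Correlations were 0.135 to 0.554 in all 12 pairs, against −0.29 to 0.149 in the 36 pairs of different number. Samples of the same number were therefore compared as pairs, and the replicate number was a block in an alternative fit. Standard errors, the rule for a member apart and the main calls are from the model without the block, which leaves the pairing out. Blocked counts are given for the members and the partners. Of the epithelial markers, the blocked calls that changed, those of KRT8 and KRT18, are given.

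Positions are from the RefSeq table of GRCh38.p14, matched by gene ID for 14661 tested genes. Strand and exon overlap are from GENCODE. Promoters are from RefSeq for 45 of the 47 members. The members, their groups by role and the partner list were chosen with earlier results of these data known. Values in every sample are given for the 3 members highest, lowest and nearest to the 9q median in each comparison and for NOTCH1, TSC1, KLF4, PTCH1, ABL1, ANXA1 and GNAQ. Some cell type markers are not reported here. Reads carry no molecular identifiers, and p-values measure the spread between the 4 replicates of 1 line each.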

Additional observations from a re-analysis of the deposited data

Results flagged for a closer look

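In 5 of 147 groups of 4 samples (the 47 members and the median scores of the members and of the other 9q genes, in each of 3 lines), 1 sample stood apart from the other 3 by Dixon's criterion. Chance gives about 1 in 20, here 7.35 groups, which is more than the 5 found. The gap to the nearest sample, as a share of the range of the group, was 0.838 for SECISBP2 in replicate 3 of DU145KO+α2 (117 CPM against 98.0 to 101 CPM). It was 0.853 for NINJ1 in replicate 3 of DU145KO (157 CPM against 114 to 121 CPM). For NEK6 it was 0.896 in replicate 3 of DU145KO, the lowest sample at 55.0 CPM against 67.4 to 68.9 CPM. ABL1 in the same sample gave 0.842 (229 CPM against 249 to 253 CPM). SPTAN1 gave 0.843 in replicate 1 of DU145KO (261 CPM against 332 to 346 CPM). Of the 5, 3 were in replicate 3 of DU145KO.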

How the results depend on the processing

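Of the 2820 recomputed log2 fold changes of members, each lay within 1 SD between replicates of its value. The fits share most of their samples, so this closeness was largely given in advance. Of the 2820, 47 had the opposite sign, all of values not above 0.103 in size. Of these 47, 45 came from leaving out 1 sample, and the other two were ABCA1 near 0 in DU145KO+vector compared with DU145KO. In DU145KO+α2 compared with DU145KO+vector the sign turned for ABCA1 and UGCG alone. Leaving out 1 sample at a time, the members' median was −0.27 to −0.24 in DU145KO+α2 compared with DU145KO+vector, −0.16 to −0.14 compared with DU145KO and 0.10 to 0.14 in DU145KO+vector compared with DU145KO. For the other 9q genes these ranges were −0.32 to −0.29, −0.18 to −0.13 and 0.12 to 0.17. No scaling moved the median of all genes by more than 0.02.

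Counts of calls did depend on the test. Between the transfected lines, 21 members were lower, 33 with the replicate block, 15 to 22 when 1 sample was left out and 0 when a fold change above 2 was also required. The 2 higher members became 0 with that fold and were 2 in every fit that left out 1 sample. Compared with DU145KO, 5 members were lower in DU145KO+α2, 9 by the DESeq2 Wald test, 2 in a fit of only the 2 lines, 19 with the block, 0 with the fold and 2 to 6 when 1 sample was left out. The 1 higher member became 2 by DESeq2 and with the block, 0 with the fold, and 0 to 1 when 1 sample was left out. In DU145KO+vector compared with DU145KO, 2 members were higher, 4 by DESeq2, 14 with the block, 0 with the fold and 1 to 2 when 1 sample was left out, and the 1 lower member became 0 with the fold. Among the partners the block gave 5 lower between the transfected lines, 5 lower and 5 higher in DU145KO+α2 compared with DU145KO, and 2 lower and 7 higher in DU145KO+vector compared with DU145KO. The block moved no other count by more than 1.5 times. The cause of these differences was not tested. Shares of all genes are given above for the main, blocked and fold rules. For the other fits they are not given, so nothing is read from the counts of those fits.

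PTCH1, NOTCH1 and XPA, members of low count, had standard errors of 0.14 to 0.17 in DU145KO+α2 compared with DU145KO+vector. Both 0 and the median of 9q lay within 2 standard errors of their values. Members of high count such as UGCG and VPS13A had like errors, 0.18 and 0.15, and the part of depth was not tested.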

Other observations

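Of the other 9q genes with a mean log2 CPM of 1 or more, the lowest log2 fold changes in DU145KO+α2 compared with DU145KO+vector were those of SYK, a tyrosine kinase (−2.17, standard error 0.17), PRUNE2 (−1.52, standard error 0.22) and BSPRY (−1.26, standard error 0.17). In all 3, every DU145KO+α2 sample was below every sample of both other lines. PRUNE2, the gene before VPS13A among those tested, had 24.7 ± 8.9 CPM (SD, n = 4) in DU145KO, 25.5 ± 3.46 CPM with the empty vector and 8.86 ± 0.711 CPM with α2 integrin. VPS13A itself was at −0.21. BSPRY had 9.35 ± 0.337 CPM in DU145KO, 5.17 ± 0.654 CPM with the empty vector and 2.16 ± 0.572 CPM with α2 integrin, and its DU145KO+vector samples lay below all DU145KO samples, where the median of 9q was 0.15.

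Within the same limit on level, which leaves out genes of fewer counts with higher values, the highest were PGM5, a phosphoglucomutase-like protein of cell junctions (1.18, standard error 0.14), TLE4, a transcriptional corepressor (1.14, standard error 0.19), and FAM166A (0.76, standard error 0.23). In PGM5 and FAM166A every DU145KO+vector sample was below every sample of the other lines, as in GADD45G. PGM5 had 17.4 ± 3.46 CPM (SD, n = 4) in DU145KO, 9.58 ± 1.27 CPM with the empty vector and 21.7 ± 1.64 CPM with α2 integrin. In TLE4 the DU145KO samples overlapped with those of both transfected lines. These 6 genes were chosen by their values and are given without a test.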
